A study of Bubalus bubalis with 6 samples.

Results

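The cytosolic chaperonin TRiC, also called CCT, was followed through the messenger RNAs of its 8 subunits in buffalo (Bubalus bubalis) intramuscular adipocytes that overexpressed a long non-coding RNA. The genes are TCP1, CCT2, CCT3, CCT4, CCT5, CCT6A, CCT7 and CCT8, and every gene model that the deposited table lists under one of these names was kept, 12 models of 19476 in all. The first group held 3 samples whose cells were transduced with the Ad_ lncFABP4 adenovirus and labelled with the genotype lncFABP4 overexpress. The second held 3 samples transduced with Ad_EGFP, an adenovirus for green fluorescent protein, and labelled WT. Cells of both groups carried a virus, were left for 48 hours after transduction, then spent 48 hours in inducing medium and were collected on day 4. The dose of virus and the promoters of the vectors were not stated. Cells were plated in triplicate wells, and nothing says that the wells came from different animals, so the p-values speak of the spread between wells, and that spread may be technical only.

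TRiC is a barrel of a pair of stacked rings, each built from one copy of every subunit, that encloses unfolded proteins and folds them with the energy of ATP. The subunits are paralogs of each other. Actin and tubulin are its classic clients, and proteins with WD40 repeats, such as G protein beta subunits and the cell cycle activators CDC20 and FZR1, are others. Prefoldin hands unfolded actin and tubulin to the chaperonin, and phosducin-like proteins bind to it as co-factors. Fat cell formation is accompanied by a rebuilding of the actin and tubulin skeleton, to which TRiC supplies folded subunits.

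Levels are given in FPKM, fragments scaled by the length of the model and the depth of the library, which can be compared between genes because they are per length. The number of reads behind a value is not known, and steps of a single read in low models gave depths of 0.925 to 1.01 relative to the first EGFP sample. Column totals ran from 340165 to 360920 FPKM. FABP4, the fatty acid binding protein that gives the RNA its name, stood at 6505, 10588 and 12003 FPKM in the lncFABP4 samples and at 154, 149 and 197 FPKM in the EGFP samples. The long non-coding RNA itself has no row under its own name. Of 8 adipocyte markers 7 were matched by name and 4 were tested, of which FABP4 and PPARG rose and LPL fell. The highest value of any sample was 0.190 FPKM for CEBPA and 0.0559 FPKM for ADIPOQ, so that both were near 0 in both groups. Bulk RNA cannot tell apart fewer cells of a type and less RNA per cell.

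Messenger RNA of the chaperonin was more abundant after lncFABP4 transduction. Summed over all models of the 8 names, it held 1164, 1224 and 1252 FPKM in the lncFABP4 samples, against 934, 899 and 928 FPKM in the EGFP samples, and each lncFABP4 sample lay above each EGFP sample. The group means were 1213 ± 44.7 FPKM in lncFABP4 cells and 920.4 ± 19.0 FPKM in EGFP cells (SD, n = 3 each), a ratio of 1.32. As a share of all FPKM this was 0.343% ± 0.0177 in lncFABP4 samples and 0.264% ± 0.00113 in EGFP samples. Among the lncFABP4 samples, replicate 1 had the lowest sum and also the least FABP4. The part of the FABP4 level in this order was not tested.

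Changes were tested with limma on log2(FPKM + 1), lncFABP4 minus EGFP, over the 11064 models that reached 1 FPKM in at least 3 samples, with Benjamini-Hochberg adjustment over all of them at 0.05. Of the 12 chaperonin models 11 were tested, and 8 of them rose, while 16.5% of all tested models rose and 26.7% changed in either direction. Of the 11, 3 were not called, and 0 fell, also at an unadjusted p under 0.05 in limma. The groups did not overlap, with lncFABP4 higher, in 10 of the 11 models, and in 26.6% of all tested models, with a further 17.2% lower without overlap. The most abundant model of each name had higher values in all 3 lncFABP4 samples for all 8 genes, and 7 of the 8 passed the test. The median log2 change over these 8 models was 0.39, and 0.05 over all tested models. Among all models, 61.8% of the calls were higher, against 49.2% with TMM or median-of-ratios factors and 50.8% with quantile scaling, under which the median of the 8 fell no lower than 0.33.

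**Figure D1:**
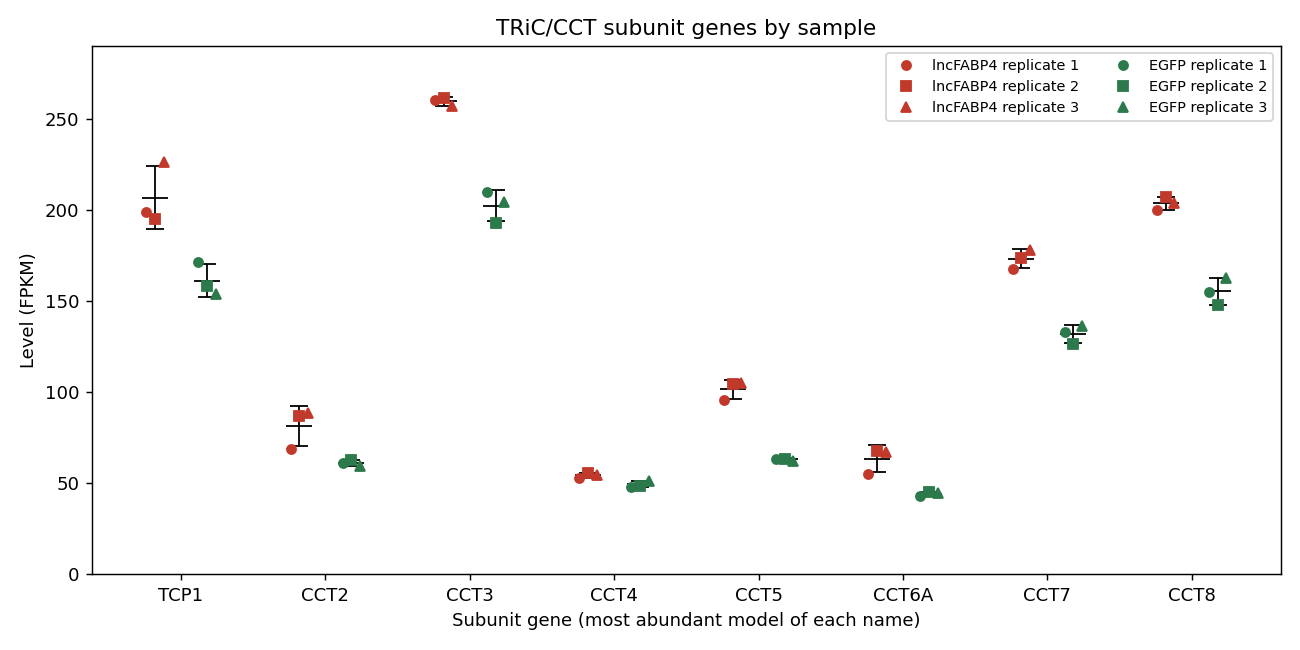
Levels in FPKM (y axis, linear from 0) of the most abundant model of each TRiC/CCT subunit gene, with 1 point per sample and the mean ± SD of 3 samples as bars. For each of the 8 genes the 3 lncFABP4 samples lie above the 3 EGFP samples, with the smallest separation for CCT4 and the widest relative one for CCT5.

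CCT5, the epsilon subunit, had the largest rise of the 8. Its model held 95.5, 104 and 105 FPKM in the lncFABP4 samples, against 63.4, 63.5 and 62.2 FPKM in the EGFP samples. The EGFP samples were nearly equal, and every lncFABP4 sample lay far above them. The means were 101 ± 5.21 FPKM in lncFABP4 cells and 63.0 ± 0.706 FPKM in EGFP cells (SD, n = 3 each), with a ratio of 1.61. By limma the difference was 0.68 on the log2 scale (SE 0.07, adjusted p = 0.000614), and 2.91% of all tested models rose by more. In humans, mutations of CCT5 cause a hereditary sensory neuropathy.

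CCT6A, the zeta subunit, came next and is listed under 3 models. The most abundant one had 54.9, 67.9 and 67.3 FPKM in the lncFABP4 samples and 42.7, 45.0 and 44.4 FPKM in the EGFP samples, which differ by 0.51 on the log2 scale (SE 0.09, limma adjusted p = 0.00614). The second model had 49.5, 55.6 and 54.3 FPKM in lncFABP4 samples and 37.9, 37.8 and 40.2 FPKM in EGFP samples, and it also rose (log2 0.45, SE 0.07, limma adjusted p = 0.00405). The third stood at 2.49, 1.68 and 2.23 FPKM in lncFABP4 samples against 1.10, 2.40 and 1.53 FPKM in EGFP samples, with overlapping groups, and was not called (limma adjusted p = 0.342). The RefSeq annotation of the buffalo assembly NDDB_SH_1 holds 1 gene under each of the 8 symbols, so whether the further models are separate genes is not known. The second CCT6A model held 0.902, 0.820 and 0.807 times the level of the first in lncFABP4 samples and 0.887, 0.841 and 0.906 times in EGFP samples. Models that are near-identical can share reads, and values split between them are uncertain for that reason. Summed over its models, CCT6A had 119 ± 10.2 FPKM in lncFABP4 samples and 84.3 ± 2.35 FPKM in EGFP samples (SD, n = 3 each).

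CCT2, CCT7, CCT8, CCT3 and TCP1 rose by nearly the same amount, between 0.36 and 0.40 on the log2 scale. CCT7, the eta subunit, had 168, 174 and 178 FPKM in the lncFABP4 samples, against 133, 126 and 136 FPKM in the EGFP samples (log2 0.39, SE 0.06, limma adjusted p = 0.00407). CCT8, the theta subunit, had 200.01, 207 and 204 FPKM in lncFABP4 samples, against 155, 148 and 163 FPKM in EGFP samples (log2 0.39, SE 0.06, limma adjusted p = 0.00417). In these genes the gap between the groups was wider than the whole range within either. CCT3, the gamma subunit, was the most abundant of all. It stood at 260.5, 261 and 257 FPKM in lncFABP4 samples and 209.9, 193 and 204 FPKM in EGFP samples (log2 0.36, SE 0.06, limma adjusted p = 0.00501).

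TCP1, the alpha subunit, was named after the t-complex of the mouse, where it was found. It had 199, 195 and 226 FPKM in the lncFABP4 samples, against 171, 158 and 154 FPKM in the EGFP samples (log2 0.36, SE 0.08, limma adjusted p = 0.0147). Its call was lost without lncFABP4 replicate 3, the highest sample (limma adjusted p = 0.0622), and without EGFP replicate 3, the lowest (0.0589). CCT2, the beta subunit, had 68.9, 86.6 and 88.7 FPKM in lncFABP4 samples, against 61.0, 62.9 and 59.2 FPKM in EGFP samples (log2 0.40, SE 0.10, limma adjusted p = 0.0221). Replicate 1 of the lncFABP4 group was closer to the EGFP samples than to its own group in this gene. The call of CCT2 was lost without lncFABP4 replicate 2 or 3 (limma adjusted p = 0.0754 and 0.0854), without EGFP replicate 1 or 3 (0.0666 and 0.0748), with quantile scaling (0.0785) and without a filter on low values (0.0514).

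CCT4, the delta subunit, was the gene that did not pass the test. Its more abundant model had 52.9, 55.5 and 54.6 FPKM in the lncFABP4 samples, against 48.1, 48.7 and 51.2 FPKM in the EGFP samples. The groups did not overlap, but the change was 0.14 on the log2 scale (SE 0.07, limma adjusted p = 0.154), and 0.04 with quantile scaling. The second model had 13.3, 14.8 and 14.4 FPKM in lncFABP4 samples, against 11.2, 12.5 and 12.2 FPKM in EGFP samples (log2 0.23, SE 0.08, limma adjusted p = 0.0742). It passed without lncFABP4 replicate 1 (limma adjusted p = 0.0444). With both models summed, CCT4 averaged 68.5 ± 2.08 FPKM in lncFABP4 samples and 61.3 ± 2.02 FPKM in EGFP samples (SD, n = 3 each), and the sum was not called either (log2 0.16, limma adjusted p = 0.104). The second model of CCT5 was listed at 0.415 FPKM in lncFABP4 replicate 3 and at 0 in the other 5 samples, and was not tested.

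**Figure D2:**
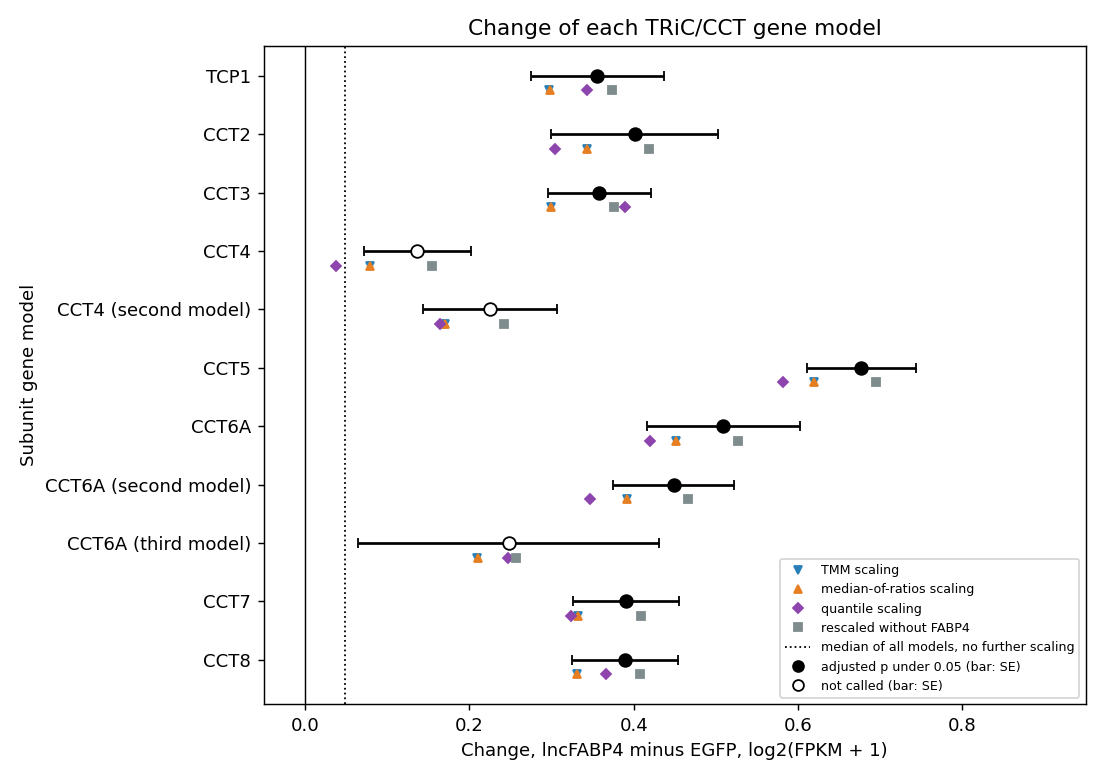
Log2 change (x axis, lncFABP4 minus EGFP on log2(FPKM + 1)) of the 11 tested chaperonin models, with bars for the SE, filled circles for an adjusted p under 0.05 and small symbols for 4 other scalings. All 11 changes are above 0 under each of the 4 scalings, and the 2 models of CCT4 and the third of CCT6A are the open circles.

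Whether a subunit moved apart from the rest was asked with a comparison in which a scaling factor shared by all genes of a sample largely cancels, while quantile scaling, which is no such factor, was not run for it. Each sample was set against the mean log2(FPKM + 1) of the other 7 subunits, and all models were fitted again. The most abundant model of each name was used, so the second CCT4 model, which rose by 0.23, has no part here. This comparison was added after the data had been seen, and between 53.5% and 64.5% of all models pass it. CCT5 rose by 0.31 beyond the other 7 (SE 0.07, 95% interval 0.15 to 0.48, limma unadjusted p = 0.00205, adjusted p = 0.00769, with 53.5% of models called). CCT4 lagged behind the other 7, with a difference of -0.30 (SE 0.08, 95% interval -0.48 to -0.12, limma unadjusted p = 0.00430, adjusted p = 0.00996, with 64.5% of models called). Both calls were kept when any single library was left out, with adjusted p-values up to 0.0363 for CCT5 and 0.0476 for CCT4. They are not independent, since CCT5 is among the 7 set against CCT4 and CCT4 among those set against CCT5. For the other 6 the difference was not called, with 60.5% of models called in the fit for TCP1, 60.8% for CCT2, 59.9% for CCT3, 58.2% for CCT6A, 59.6% for CCT7 and 59.3% for CCT8. Their intervals ran from -0.26 to 0.15 for TCP1, -0.21 to 0.21 for CCT2, -0.24 to 0.14 for CCT3, -0.07 to 0.32 for CCT6A, -0.18 to 0.16 for CCT7 and -0.20 to 0.17 for CCT8. CCT6A was called without lncFABP4 replicate 1 (difference 0.19, limma adjusted p = 0.0468). CCT4 and CCT5 are both among the subunits that bind ATP with high affinity in yeast TRiC.

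**Figure D3:**
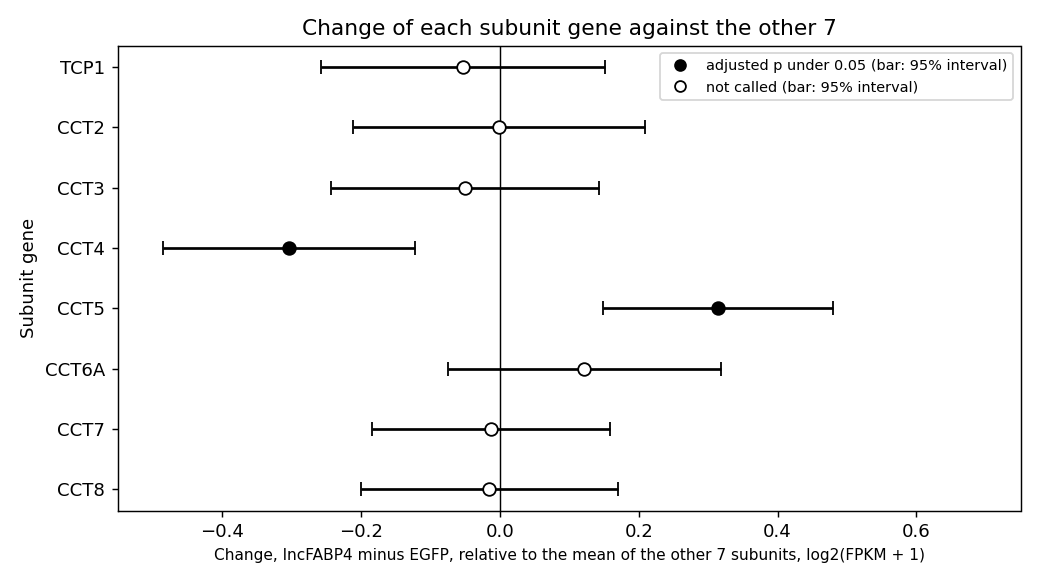
Log2 change of each subunit gene (x axis, lncFABP4 minus EGFP) relative to the mean of the other 7, with the 95% interval as bar and filled circles for an adjusted p under 0.05. CCT5 lies at 0.31 and CCT4 at -0.30, and the intervals of the other 6 genes cross 0.

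The composition of the transcript pool, taken from the same values, set the same pair of genes apart. Shares were taken of the summed FPKM of the most abundant model of each of the 8 subunits. CCT5 made up 8.69%, 9.05% and 8.88% of this sum in the lncFABP4 samples, against 7.17%, 7.50% and 7.12% in the EGFP samples. CCT4 made up 4.82%, 4.82% and 4.63% in lncFABP4 samples, against 5.44%, 5.76% and 5.86% in EGFP samples. These were the 2 subunits whose shares did not overlap between the groups. An exact permutation test, two-sided, gives no less than 0.1 with 3 samples against 3, which is what it gave for both. With Benjamini-Hochberg adjustment over the 8 subunits, the permutation p was 0.4 for CCT5 and for CCT4. With so high a lowest value the test could call neither gene, so the shares set them apart by the lack of overlap only. The shares of the other 6 overlapped.

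**Figure D4:**
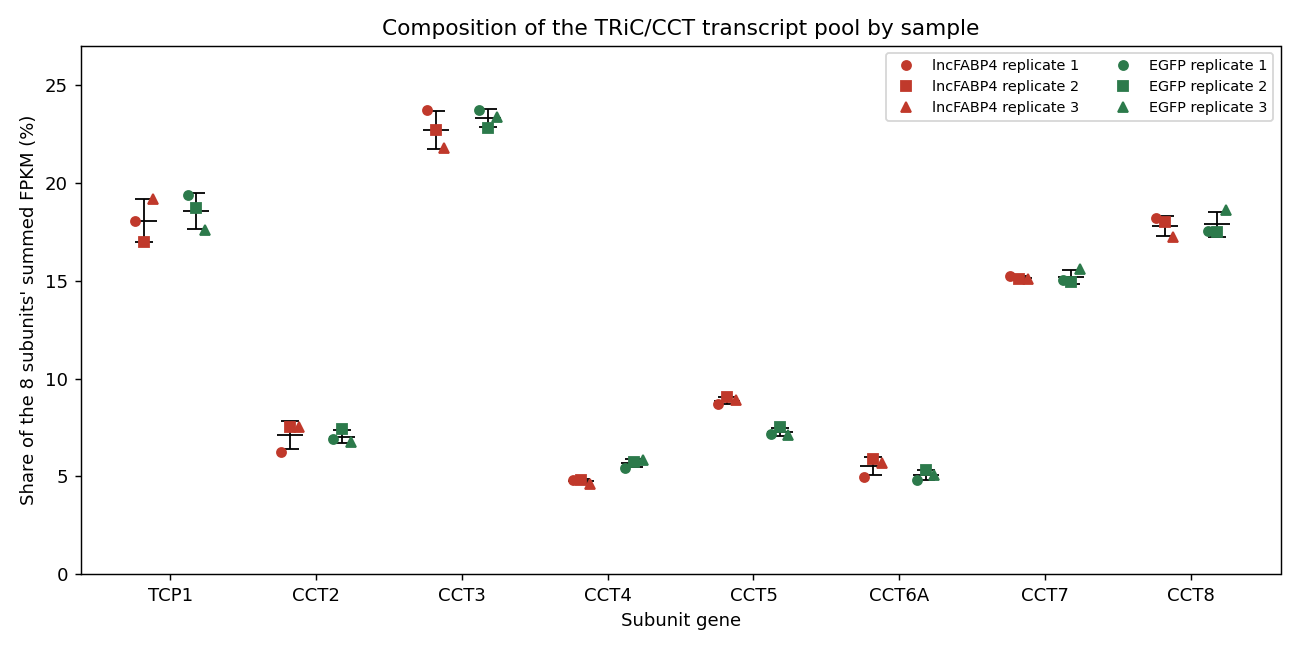
Share of each subunit gene in the summed FPKM of the 8 subunits, by the most abundant model of each (y axis, percent, linear from 0), with 1 point per sample and the mean ± SD of 3 samples as bars. CCT5 lies higher and CCT4 lower in all 3 lncFABP4 samples, while the points of the other 6 genes overlap between the groups.

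By their most abundant models, the subunits differed by 4.78-fold between the highest and the lowest in lncFABP4 cells and by 4.60-fold in EGFP cells, although the complex holds equal numbers of each. The order that follows is also that of the most abundant models. In both groups CCT3 was highest, followed by TCP1 and CCT8, which overlapped, then CCT7. Below these, the order in lncFABP4 cells was CCT5, CCT2, CCT6A and CCT4. CCT5 and CCT2 did not overlap there, and CCT6A and CCT4 did. In EGFP cells the order was CCT5, CCT2, CCT4 and CCT6A, with overlap between CCT5 and CCT2 and none between CCT4 and CCT6A. CCT4 and CCT6A thus stood in opposite order in the groups by their most abundant models. With the models of a name summed, CCT6A was above CCT4 and also above CCT5 in all 6 samples. The spread was then smaller, with means from 68.5 to 260 FPKM in lncFABP4 cells and from 61.0 to 202 FPKM in EGFP cells. Both the folds and the lower part of the order thus depend on how models are counted.

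The genes whose level followed the subunits most closely over the 6 samples were WNT5A, GPAT3, YARS1, CKB and NASP, by Pearson's r between 0.998 and 1.000 with the mean centred log2 level of the 8 subunits. They were taken from 7096 named models of at least 5 FPKM on average, and 6 samples in 2 groups make a high r common. In WNT5A, a secreted ligand of the WNT family and the closest of the 5, the values were 25.5, 31.2 and 33.7 FPKM in lncFABP4 samples and 13.9, 12.8 and 13.4 FPKM in EGFP samples. As in the mean level of the 8 subunits, though not in TCP1 or CCT3 singly, lncFABP4 replicate 1 was the lowest of its group. Among the subunits themselves r with this mean ran from 0.930 for CCT4 to 0.994 for CCT5. Each subunit is part of the mean, which raises its r, so these values cannot be set against those of the 5 genes outside it.

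Partners of TRiC were called in part. Over all tested models 16.5% were called higher and 10.2% lower, and the counts of the short lists below are to be read beside these shares. In prefoldin, 2 of 5 tested models rose and 3 were not called (median log2 0.13). PFDN6 had 107, 104 and 112 FPKM in the lncFABP4 samples, against 68.3, 67.4 and 72.3 FPKM in the EGFP samples (log2 0.63, SE 0.07, limma adjusted p = 0.000764). VBP1, the prefoldin subunit that binds the von Hippel-Lindau protein, rose by 0.51 (limma adjusted p = 0.00986). Among phosducin-like co-factors, PDCL3 and TXNDC9 rose by 0.46 and 0.53 (limma adjusted p = 0.00927 and 0.0120), and PDCL was not called. TXNDC9 was not called without lncFABP4 replicate 3 (adjusted p = 0.0504). URI1, a prefoldin-like protein, had 9.46, 10.2 and 10.1 FPKM in lncFABP4 samples, against 12.2, 13.1 and 12.1 FPKM in EGFP samples, and fell by 0.30 (limma adjusted p = 0.0239). That call was lost without any of 5 of the 6 libraries (adjusted p from 0.0553 to 0.0732) and kept without lncFABP4 replicate 1. PDRG1, the other prefoldin-like gene tested, was not called.

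Tubulin genes, whose products depend on TRiC for folding, rose in 7 of 13 tested models and fell in 2, with 4 not called (median log2 0.32). Of all tested models 16.5% rose and 10.2% fell. With TMM or median-of-ratios scaling 6 tubulin models were higher, and 5 to 8 when a library was left out. TUBB3 was not called under these 2 scalings, nor without lncFABP4 replicate 2 or 3 or EGFP replicate 1 or 3 (limma adjusted p from 0.0551 to 0.0937). TUBB6 was not called without lncFABP4 replicate 2 or EGFP replicate 3 (0.0536 and 0.0598). The 2 most abundant models of TUBA1C rose, the larger to 89.5 ± 2.84 FPKM in lncFABP4 samples against 60.5 ± 2.21 FPKM in EGFP samples (SD, n = 3 each, log2 0.56, limma adjusted p = 0.00115). TUBA1B rose by 0.52 (limma adjusted p = 0.00196), although alpha tubulin copies are near-identical and can share reads. TUBB4A, a beta tubulin of neurons, went the other way, with 7.53, 5.36 and 5.38 FPKM in lncFABP4 samples against 14.7, 14.2 and 15.3 FPKM in EGFP samples (log2 -1.17, limma adjusted p = 0.000765). TUBA4A was the other tubulin that fell (log2 -0.37), and its call was lost without EGFP replicate 3 (limma adjusted p = 0.0643). Of 6 tested models of tubulin folding cofactors, which act after TRiC, 3 rose and 3 were not called (median log2 0.15). The most abundant model of TBCB had 22.1, 21.6 and 21.4 FPKM in lncFABP4 samples, against 11.8, 12.6 and 12.2 FPKM in EGFP samples (log2 0.78, SE 0.07, limma adjusted p = 0.000419), a wider relative gap than in any chaperonin subunit. Another TBCB model, at 0.959 FPKM on average in lncFABP4 samples and 0.898 FPKM in EGFP samples, was not called (limma adjusted p = 0.853). TBCE and TBCD rose by 0.43 and 0.27 (limma adjusted p = 0.00975 and 0.0284), and TBCD was not called under TMM, median-of-ratios or quantile scaling or without any of 5 of the 6 libraries (adjusted p from 0.0622 to 0.103).

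Actins and actin-related proteins were tested as 8 models, of which ACTA2 and ACTR2 rose and 6 were not called (median log2 0.24). With 16.5% of all tested models higher and 26.7% called in either direction, so few calls are near the common share. The 8 were 1 model each of ACTB, ACTG1, ACTA2 and ACTR2 and 4 of ACTR3, a partner of ACTR2, so the median is not that of the actins. The cytoplasmic actins ACTB and ACTG1, the bulk of the list, averaged 922 and 719.9 FPKM in lncFABP4 samples and 866 and 789.5 FPKM in EGFP samples and were not called. ACTA2, smooth muscle actin, had 133, 196 and 176 FPKM in lncFABP4 samples, against 119, 96.0 and 67.5 FPKM in EGFP samples (log2 0.85, limma adjusted p = 0.0198). ACTR2, a subunit of the actin-branching complex, rose by 0.38 (limma adjusted p = 0.0112). Without lncFABP4 replicate 3 neither was called (adjusted p = 0.0636 and 0.0518), and without lncFABP4 replicate 2 ACTA2 was not (0.0595), whereas 4 models were higher without lncFABP4 replicate 1. ACTA2 was not called without a filter on low values either (0.0624). Of 14 tested WD40 and other clients, 4 rose and 10 were not called (median log2 0.14). As calls in either direction this is near the common share of 26.7%, whereas 16.5% of all tested models were higher. The 4 were CDC20, the cyclin CCNE1, WRAP53 of telomerase assembly and FZR1, at 0.69, 0.51, 0.34 and 0.24 (limma adjusted p = 0.00848, 0.0121, 0.0184 and 0.0419). FZR1 was named after its values were seen, and its call was lost without any single library (adjusted p from 0.0501 to 0.145) and with TMM, median-of-ratios or quantile scaling. CCNE1 was not called without lncFABP4 replicate 3 (0.0512), nor WRAP53 without lncFABP4 replicate 2 or 3 or EGFP replicate 3 (0.0675 to 0.0741). CDC20 averaged 2.01 FPKM in lncFABP4 samples and 0.852 FPKM in EGFP samples. It reached 1 FPKM in the lncFABP4 samples only, so it passed the filter through the group where it was high. It was called in all 12 alternatives that tested it, but leaving out any lncFABP4 sample removed it from the test. Its call could therefore not be checked against those samples. This list had 0 to 4 models higher and 0 to 2 lower when a library was left out, with 0 higher without lncFABP4 replicate 3, 1 without lncFABP4 replicate 2 and 2 without lncFABP4 replicate 1 or EGFP replicate 3. Part of the drop without an lncFABP4 library is that CDC20 was then not tested. With TMM scaling 3 were higher and 2 lower.

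The chaperonin of mitochondria is a different machine, built from HSPD1 with HSPE1 as its lid. HSPD1 had 233, 264 and 259 FPKM in the lncFABP4 samples, against 173, 176 and 185 FPKM in the EGFP samples (log2 0.50, SE 0.07, limma adjusted p = 0.00256). HSPE1 had 607, 462 and 457 FPKM in lncFABP4 samples and 405, 411 and 405 FPKM in EGFP samples and was not called (log2 0.31, limma adjusted p = 0.0710). Here lncFABP4 replicate 1 was the highest sample, unlike in the TRiC genes, and without it HSPE1 was called as well. The transcription factors HSF1, HSF2, MYC and MAX, some of which are known to act on chaperonin genes in other mammals, had 0 of 4 tested models called by limma and 1 at an unadjusted p under 0.05, that of HSF2. HSF2 was at 12.6 FPKM in lncFABP4 samples on average and 10.7 FPKM in EGFP samples (log2 0.22, limma adjusted p = 0.0601). Without lncFABP4 replicate 1, 1 model of this list was called higher.

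**Figure D5:**
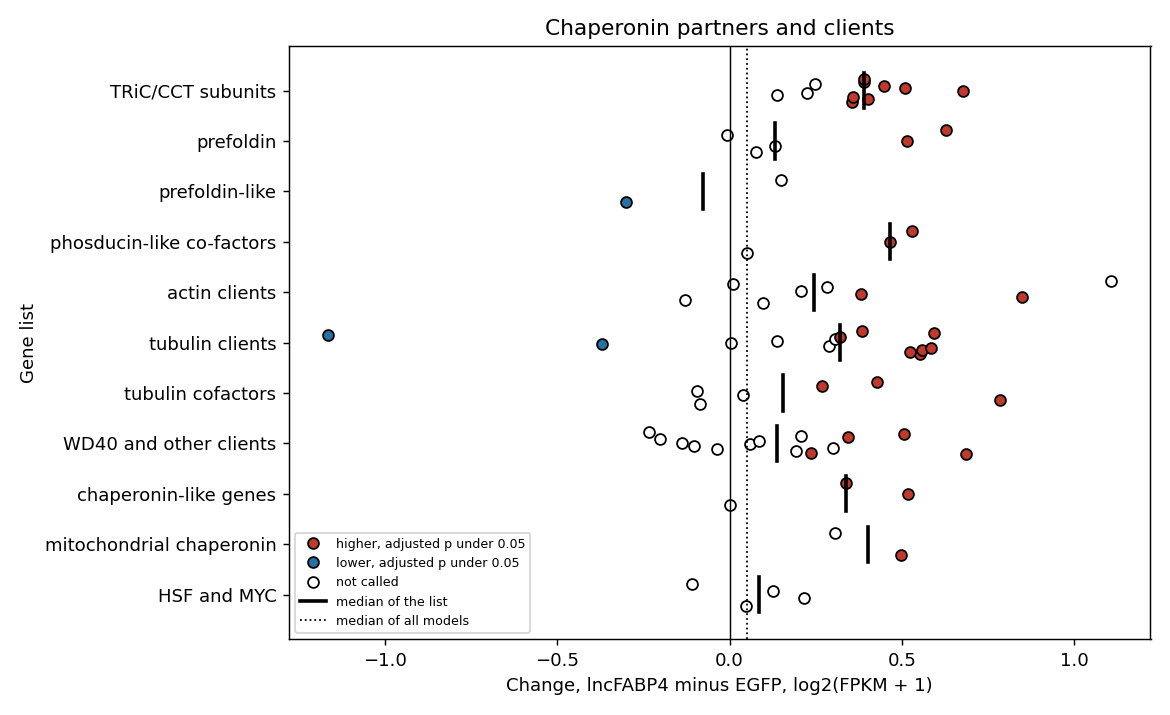
Log2 change (x axis, lncFABP4 minus EGFP on log2(FPKM + 1)) of each tested model of the chaperonin, its partners, its clients and related lists, with filled points for an adjusted p under 0.05 and a thick line for the median of each list. The chaperonin median lies at 0.39 and that of all models, dotted, at 0.05, while 2 tubulin models and URI1 are the points that fell.

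Other marker genes moved with these values. The 3 tested proliferation markers TOP2A, PCNA and MCM2 rose, and the list of 4 summed to 11.6 to 17.3 FPKM in lncFABP4 samples and 6.91 to 7.33 FPKM in EGFP samples. Leaving out a library left 2 or 3 of them called, since TOP2A was lost without lncFABP4 replicate 2 or 3 or EGFP replicate 1 or 3 (limma adjusted p from 0.0519 to 0.0646) and with no filter (0.0590). All 5 fibroblast and preadipocyte markers fell, with sums of 6863 to 7468 FPKM in lncFABP4 samples and 10981 to 11656 FPKM in EGFP samples, though COL1A1 was not called without lncFABP4 replicate 2 or 3 or EGFP replicate 1 (limma adjusted p from 0.0637 to 0.0789) or with quantile scaling (0.212) or no filter (0.139). Immune markers summed to 36.0 to 37.0 FPKM in lncFABP4 samples and 17.1 to 23.8 FPKM in EGFP samples. Of the 2 tested, CD14 rose, with 27.5 FPKM on average in lncFABP4 samples and 10.6 FPKM in EGFP samples. CD68, at 8.88 and 9.46 FPKM in the same order, was not called (log2 -0.08, limma adjusted p = 0.576). PTPRC, the marker of all white blood cells, was at most 0.0113 FPKM. Endothelial markers summed to 4.08 to 4.33 FPKM in lncFABP4 samples and 2.90 to 3.29 FPKM in EGFP samples, nearly all of it VWF, and PECAM1 was listed at 0 in all EGFP samples and in lncFABP4 replicate 3. Muscle markers summed to 2.09 to 2.70 FPKM in lncFABP4 samples and 4.16 to 4.92 FPKM in EGFP samples. Of 6 names 3 were matched, and nearly all of the sum was DES and MYH3, both low. MYH3 reached 1 FPKM in the EGFP samples only, and MYF5 was at most 0.199 FPKM. The part of cell proliferation or cell makeup in the chaperonin change was not tested.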

How the data were processed

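Polyadenylated RNA of 6 samples was sequenced on a DNBSEQ platform, per the labels' protocols. The submitters' processing notes name HISAT2 and StringTie. Build and annotation were not stated. The deposited values were taken to be FPKM from their decimals and unequal column totals, since the header gives no unit. Models were kept apart, and 4570 of them have no gene name. Testing was two-sided with limma 3.58.1 (R 4.3.3, variance trend, no replicate block) on log2(FPKM + 1), for models that reached 1 FPKM in 3 or more samples, and the code was tested on simulated data. On this scale low genes show less than their full change.

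The members and gene lists were chosen with earlier results of these data known. All member models are named, and by rule the 5 models closest to the members and, in every list, at most 3 called genes with the lowest adjusted p. Other genes were named beside small counts after their values were seen. Alternatives were pseudocounts of 0.1 and 0.01, no filter or one at 5 FPKM, scaling by TMM, median of ratios, quantiles or totals without FABP4, a replicate block, a robust trend (statmod 1.5.0), summed models and each sample left out. The comparison with the other 7 subunits was added after seeing the data.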

Additional observations from a re-analysis of the deposited data

How the results depend on the processing

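Between 6 and 9 chaperonin models were called higher when a library was left out, and 7 or 8 under the other alternatives, and 0 were called lower in any of them. All 183 recomputed changes of the 11 tested models stayed above 0. Over all genes, leaving out a library gave 991 to 1974 models called higher, against 1827 with all samples, and 618 to 1445 called lower, against 1131. Set against the other 7 subunits, the change ranged without single libraries from -0.098 to 0.0087 for TCP1, from -0.046 to 0.082 for CCT2, from -0.036 to 0.0096 for CCT7 and from -0.048 to 0.020 for CCT8, with no call. The replicate numbers gave no clear pairing of the samples. The deviations of same-numbered samples from their group means correlated at 0.181, 0.291 and -0.0774. By these values lncFABP4 replicate 2 was closest to EGFP replicate 2, but lncFABP4 replicate 1 to EGFP replicate 3 and lncFABP4 replicate 3 to EGFP replicate 2. Deviations within a group of 3 sum to 0, which ties these values to each other, so they cannot exclude a pairing. With the replicate block 8 chaperonin models were called higher, as without it, and 2061 models of all genes were called higher and 1275 lower. The call of FZR1 was lost under the block (limma adjusted p = 0.0521). Since read numbers are not known, counting error could not be given for any value.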

Other observations

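Genes related to TRiC by sequence outside the ring were mostly low. CCT6B, the form of the zeta subunit found in testis, was at 0.571, 0.710 and 0.266 FPKM in the lncFABP4 samples and 0.480, 0.455 and 0.496 FPKM in the EGFP samples, too low to be tested. BBS10 and BBS12, chaperonin-like proteins that assemble the BBSome of the primary cilium, rose by 0.52 and 0.34 on the log2 scale (limma adjusted p = 0.0329 and 0.0427). MKKS, their partner, was not called (7.09 FPKM on average in lncFABP4 samples and 7.32 FPKM in EGFP samples). Both ceased to be called with no filter, and without lncFABP4 replicate 2, lncFABP4 replicate 3 or EGFP replicate 1 (adjusted p from 0.0730 to 0.139), that of BBS10 without EGFP replicate 3 (0.106) and that of BBS12 without EGFP replicate 2 (0.0779) and under TMM, median-of-ratios and quantile scaling as well.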
